A study of Mus musculus with 6 samples.

Results

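The 10 genes described here encode chains of the receptors for interferon-gamma (Ifngr1, Ifngr2), the type I interferons (Ifnar1, Ifnar2), IL-10 (Il10ra, Il10rb), IL-27 and IL-6 (Il27ra, Il6ra and their shared chain Il6st) and IL-12 and IL-23 (the shared chain Il12rb1). They were chosen by name with earlier results of these data known, and all 10 had a row among the 21017 genes of the deposited count table. The RNA came from lung ILC2s (group 2 innate lymphoid cells, tissue-resident lymphocytes that make type 2 cytokines), sorted by an IL-10 reporter; 3 libraries were IL-10-producing and 3 IL-10-negative. Both groups came from IL-10GFP mice of strain C57BL/6J aged 8 weeks. In every case IL-33 had been given by the nose (rm-IL-33, 3 doses of 0.5 µg), and the ILC2s of both groups had then spent 48 h in culture with rm-IL-2, rm-IL-7 and rm-IL-4 (10 ng/mL each) before the second sort. No group without IL-33, without culture or without the reporter was analysed here, so every level below belongs, by the treatment protocol, to cytokine-stimulated cells. The cell type label instead calls the ILC2s freshly sorted and does not mention culture; the protocol was followed here. The labels do not say whether the libraries came from separate mice, pools or cultures; the p-values therefore reflect the scatter among these libraries alone, and that scatter may be technical.

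These receptors belong to the class I and class II cytokine receptor families, which have no enzyme activity of their own. For most of these receptors, a ligand brings 2 different signalling chains together. The Janus kinases bound to their tails (JAK1, JAK2, TYK2) phosphorylate each other and the tails, and STAT factors dock there and move to the nucleus. IL-10 and IL-6 act mainly through STAT3, and IL-12 through STAT4. In ILC2s, interferons and IL-27 are known to restrain proliferation and type 2 cytokine output, and IL-12 is known to move the cells towards interferon-gamma production.

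The IL-10-producing libraries had less RNA of each of the 10 receptor genes. All 10 passed the low-count filter, and all 10 passed the edgeR quasi-likelihood test as lower (adjusted p between 5.98e-17 and 0.00883). Across the 16654 genes tested, 35.7% passed in either direction, 18.6% as lower and 17.1% as higher. Among genes at 5 CPM (counts scaled to TMM-adjusted library size) or more in both groups, 22.4% passed as lower. That class holds 9 of the 10 receptor genes. Because the 10 genes were chosen with earlier results known, these shares give the background and do not test the set. The members' median log2 fold change (IL-10-producing over IL-10-negative) was -0.25, beside -0.0038 over all genes tested. The size of the falls differed widely: Il6ra fell by 2.45, Ifngr1 by 0.82 and Ifngr2 by 0.72 on the log2 scale, whereas 5 members moved by less than 0.25. For none of the 10 genes did the groups overlap, as was the case for 45.2% of all genes tested in either direction and for 23.5% with the IL-10-producing libraries lower. With TMM scaling 47.8% of all calls were higher, and with library size only 36.8%; all 10 members were called lower under both.

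**Figure D1:**
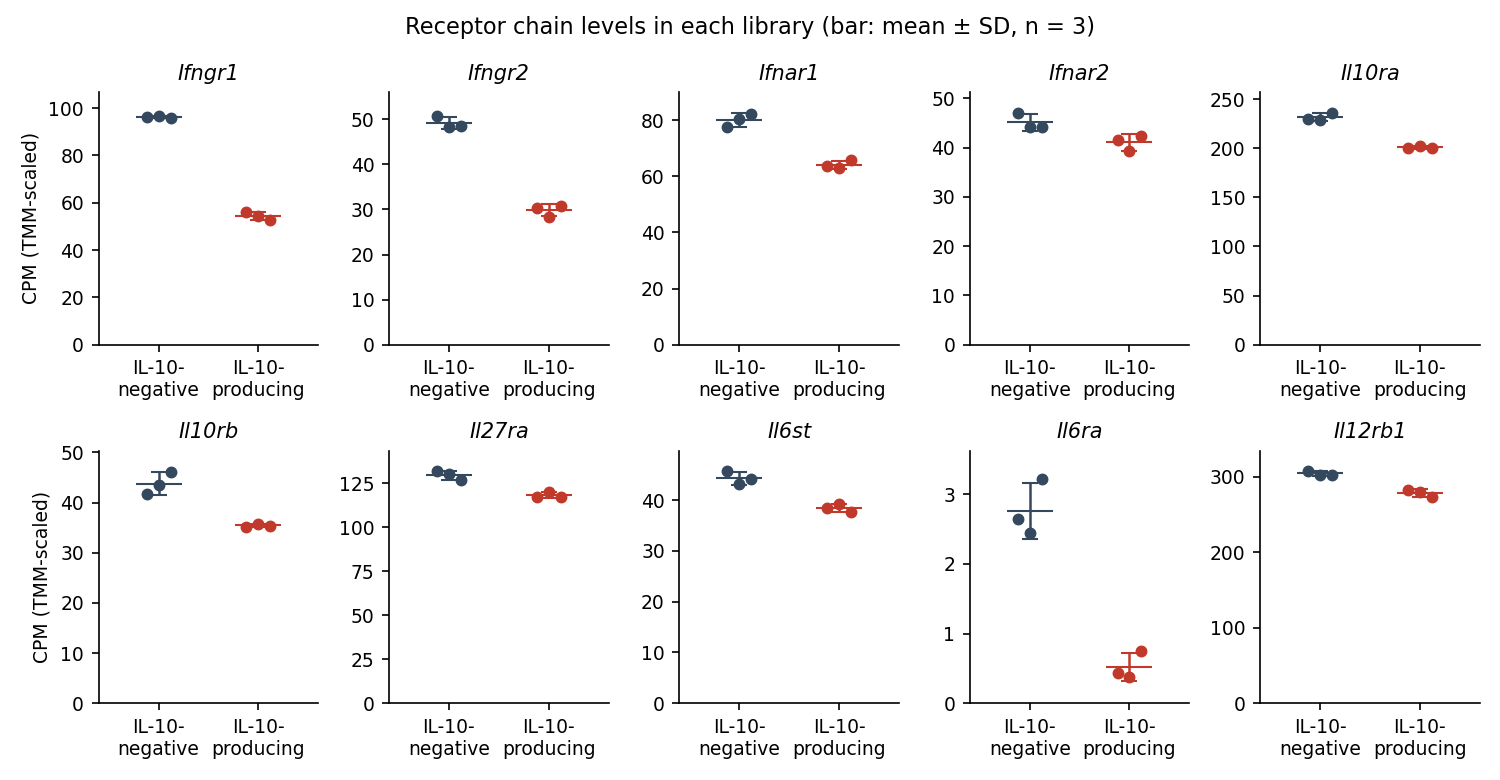
Level of each receptor gene in CPM (y axis, from 0) in the 3 IL-10-negative and 3 IL-10-producing libraries; points are libraries, bars the mean and SD. In every panel the IL-10-producing libraries lie below the IL-10-negative ones, with the widest relative gap for Il6ra (0.519 against 2.77 CPM) and a narrow one for Il12rb1 (278 against 304 CPM).

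Library totals ran from 47012941 to 69511433 counts. Il10, the gene of the sorted reporter, stood at 848 ± 7.78 against 13.5 ± 0.608 CPM (SD, n = 3), which checks the labels and is no finding. All 12 ILC2 markers were detected in every library (6 lower, 4 higher), with a summed level of 9801 to 9857 CPM in IL-10-producing and 10350 to 10430 CPM in IL-10-negative libraries. In IL-10-producing libraries, markers were lower for T cells (13 of 13 genes lower; summed level 78.0 to 80.6 against 151 to 158 CPM), mast cells and basophils (8 of 8; 11.6 to 13.4 against 65.8 to 70.4 CPM), neutrophils (3 of 3 tested; 1.28 to 1.80 against 34.3 to 37.6 CPM) and NK cells and ILC1s (4 of 5 tested, with 1 higher; 5.90 to 6.95 against 15.02 to 16.1 CPM). Most of the neutrophil sum came from Mpo (0.954 against 30.6 CPM) and Elane (0.209 against 4.15 CPM). S100a9 stood at 0.228 against 0.456 CPM, and Ly6g, which was not tested, at 0.0947 against 0.0656 CPM. In IL-10-producing libraries most of the T-cell sum was Trbc2 (48.2 CPM) and Trbc1 (18.8 CPM), and most of the NK sum was Prf1 (6.24 CPM). The NK genes Ncr1 and Klra4 had 0 counts in all IL-10-producing libraries, and the NK genes Klrb1c and Tbx21, the T-cell gene Cd8b1, the ILC3 gene Il23r and the stromal gene Pdgfra had 0 in at least 1 of them. Summed ILC3 markers were at 1.17 to 1.75 against 2.10 to 3.43 CPM and those of macrophages, monocytes and dendritic cells (4 of 8 lower, 1 higher) at 62.1 to 64.1 against 66.5 to 68.9 CPM. Summed B-cell markers were at 41.3 to 43.9 against 36.1 to 37.0 CPM (3 of 5 genes lower, 1 higher) and epithelial, endothelial and stromal markers at 119 to 125 against 104 to 111 CPM (1 of 3 tested lower, 1 higher). Several of the receptors are also made by T, NK and myeloid cells; the part of these marker differences in the falls reported here was not tested. In such bulk libraries, fewer cells of a type and less RNA per cell cannot be told apart.

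The receptor for interferon-gamma fell in both of its chains. Ifngr1, the ligand-binding chain that carries JAK1 (ENSMUSG00000020009.13, chromosome 10, 19591949 to 19610229, plus strand, mm10), stood at 96.2, 96.7 and 96.0 CPM in IL-10-negative replicates 1 to 3 and at 56.2, 54.3 and 52.8 CPM in IL-10-producing replicates 1 to 3. The groups were separated by a gap many times the spread within either (54.5 ± 1.73 against 96.3 ± 0.363 CPM). The fall was 0.82 on the log2 scale (SE 0.0303, adjusted p = 5.98e-17), and of all genes tested 4.37% fell further. Ifngr2, the signalling chain that carries JAK2 (ENSMUSG00000022965.8, chromosome 16, 91547072 to 91565623, plus strand), stood at 50.8, 48.3 and 48.5 CPM in IL-10-negative and at 30.3, 28.3 and 30.8 CPM in IL-10-producing libraries. It fell by 0.72 on the log2 scale (SE 0.0418, adjusted p = 4.43e-13). Ifngr1 and Ifngr2 are transcribed from different chromosomes, and their levels were 1.77-fold and 1.65-fold higher in IL-10-negative libraries.

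The type I interferon receptor moved less. Ifnar1, the chain that carries TYK2 (ENSMUSG00000022967.13, chromosome 16, 91485238 to 91507441, plus strand), stood at 77.5, 80.5 and 82.0 CPM in IL-10-negative and at 63.5, 63.0 and 65.6 CPM in IL-10-producing libraries, a fall of 0.32 on the log2 scale (SE 0.0313, adjusted p = 6.53e-09). Ifnar2, the chain that binds the ligand with high affinity and carries JAK1 (ENSMUSG00000022971.18, chromosome 16, 91372783 to 91405589, plus strand), stood at 47.1, 44.2 and 44.2 CPM against 41.5, 39.2 and 42.4 CPM. The gap between the groups was small for Ifnar2: its highest IL-10-producing library lay at 42.4 CPM and its lowest IL-10-negative library at 44.2 CPM. It fell by 0.14 on the log2 scale (SE 0.0406, adjusted p = 0.00883), and the call was lost without IL-10-producing replicate 2 (-0.10, adjusted p = 0.0858) and without IL-10-negative replicate 1 (-0.11, adjusted p = 0.0672).

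The sequences upstream of the 4 interferon receptor genes are shown as a description, and a link between their letters and the falls was not tested. RefSeq promoter sequences (GRCm38.p6) matched 6 of the 10 members; the 250 bases before a RefSeq start of each interferon receptor gene are printed 5′ to 3′ on the gene's strand, which is the plus strand for each. That start equals the gene start given above for Ifngr1 and Ifnar2 and lies upstream of it by 23 bases for Ifnar1 and 13 bases for Ifngr2. Capitals mark GC boxes (GGGCGG or its reverse complement) and the GAS motif, a general binding motif of the STAT family (TTCNNNGAA, which reads the same on both strands).
Ifngr1, chr10:19591699-19591948: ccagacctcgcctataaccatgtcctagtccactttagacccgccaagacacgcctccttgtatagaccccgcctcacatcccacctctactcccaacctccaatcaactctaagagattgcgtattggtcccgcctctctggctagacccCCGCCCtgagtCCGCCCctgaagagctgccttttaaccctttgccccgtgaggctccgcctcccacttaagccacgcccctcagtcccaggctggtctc
Ifngr2, chr16:91546809-91547058: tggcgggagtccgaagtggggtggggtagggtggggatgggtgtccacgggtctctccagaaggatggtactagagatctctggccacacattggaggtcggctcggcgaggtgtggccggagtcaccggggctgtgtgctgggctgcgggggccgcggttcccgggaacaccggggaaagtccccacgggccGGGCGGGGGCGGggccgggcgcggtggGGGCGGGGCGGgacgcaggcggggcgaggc
Ifnar1, chr16:91484965-91485214: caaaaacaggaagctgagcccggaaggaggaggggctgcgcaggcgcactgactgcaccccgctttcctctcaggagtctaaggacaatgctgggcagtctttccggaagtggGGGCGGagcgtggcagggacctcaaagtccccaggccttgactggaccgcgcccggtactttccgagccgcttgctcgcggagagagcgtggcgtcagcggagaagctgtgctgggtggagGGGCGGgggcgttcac
Ifnar2, chr16:91372533-91372782: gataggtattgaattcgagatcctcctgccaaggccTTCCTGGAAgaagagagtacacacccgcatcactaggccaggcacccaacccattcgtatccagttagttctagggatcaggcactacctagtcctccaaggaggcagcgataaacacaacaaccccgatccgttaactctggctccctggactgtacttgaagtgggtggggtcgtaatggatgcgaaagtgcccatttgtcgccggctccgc
GC boxes were found 2 times upstream of Ifngr1, 4 times upstream of Ifngr2 (where a neighbouring pair shares a base), 2 times upstream of Ifnar1 and 0 times upstream of Ifnar2. Of 32851 promoter windows of the same length, 32.7% held a GC box. The GAS letters occurred 1 time, upstream of Ifnar2, starting 214 bases before the RefSeq start, and in 7.02% of all windows. CG dinucleotides numbered 11, 25, 19 and 11 in the order printed, against a median of 6 over all windows. A match is a description of the letters in this window.

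Of the IL-10 receptor chains, Il10ra RNA was present at a high level and Il10rb RNA at a lower one. Both were modestly lower in the IL-10-producing libraries. Il10ra, the ligand-specific chain that carries JAK1 (ENSMUSG00000032089.16, chromosome 9, 45253837 to 45269149, minus strand), stood at 230, 229 and 236 CPM in IL-10-negative and at 200.5, 202.5 and 200 CPM in IL-10-producing libraries. The IL-10-producing libraries lay close together and all below the IL-10-negative ones (201 ± 1.32 against 232 ± 4.04 CPM), a fall of 0.20 on the log2 scale (SE 0.0211, adjusted p = 1.85e-08). Il10rb, the chain that carries TYK2 and is shared with the receptors for IL-22 and the lambda interferons (ENSMUSG00000022969.13, chromosome 16, 91406164 to 91425834, plus strand), stood at 41.6, 43.6 and 46.1 CPM against 35.2, 35.8 and 35.4 CPM. It fell by 0.30 on the log2 scale (SE 0.0414, adjusted p = 1.63e-06).

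Of the receptors that use gp130, the IL-27 chain was abundant and the IL-6 chain scarce. Il27ra (ENSMUSG00000005465.9, chromosome 8, 84030294 to 84042589, minus strand) stood at 132, 130 and 127 CPM in IL-10-negative and at 117, 120 and 117 CPM in IL-10-producing libraries, a fall of 0.13 on the log2 scale (SE 0.0251, adjusted p = 0.000139). Il6st, which encodes gp130 itself (ENSMUSG00000021756.12, chromosome 13, 112464070 to 112510086, plus strand), stood at 45.7, 43.1 and 44.2 CPM against 38.5, 39.2 and 37.6 CPM and fell by 0.20 (SE 0.0385, adjusted p = 0.00013). Both falls were small and without overlap between the groups. Il6ra, the chain that makes gp130 responsive to IL-6 (ENSMUSG00000027947.11, chromosome 3, 89864059 to 89913196, minus strand), had 137, 143 and 181 counts in IL-10-negative replicates 1 to 3, against 23, 26 and 35 counts in IL-10-producing replicates 1 to 3.

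Il6ra thus showed the largest relative fall of the 10 genes from the lowest level, 2.77 ± 0.402 to 0.519 ± 0.201 CPM (log2 fold change -2.45, SE 0.229, adjusted p = 3.22e-09). Over the group sums of 461 and 84 counts the ratio of levels was 5.57, with an exact 95% counting interval of 4.40 to 7.11 that covers counting error only. On the log2 scale of the authors' normalized values plus 1 the fall was 1.16. In the same libraries the median log2 fold change of the marker lists was -4.91 for NK cells and ILC1s, -4.31 for neutrophils, -2.67 for T cells, -2.58 for mast cells and basophils, -0.99 for B cells and -0.44 for macrophages, monocytes and dendritic cells. It was -0.89 for the 1 ILC3 marker tested, -0.12 for ILC2s and 0.29 for epithelial, endothelial and stromal cells. Their part in the Il6ra value was not tested.

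Il12rb1, the chain that carries TYK2 and serves both IL-12 and IL-23 (ENSMUSG00000000791.9, chromosome 8, 70808449 to 70821424, plus strand), was the most abundant of the 10. It stood at 308, 302 and 302 CPM in IL-10-negative and at 283, 279 and 273 CPM in IL-10-producing libraries, and it fell by 0.13 on the log2 scale (SE 0.0204, adjusted p = 1.52e-05). Its partner chains had few counts, and were picked for mention after their values had been seen. Il12rb2, which completes the IL-12 receptor, had 50, 47 and 66 counts in IL-10-negative and 0, 2 and 2 counts in IL-10-producing libraries. Its level was 41.3-fold higher in IL-10-negative libraries, with an exact 95% counting interval of 15.8 to 154 that covers counting error only. Il23r, which completes the IL-23 receptor, had 6, 9 and 13 counts against 0, 1 and 0 and was too low to be tested. Summed markers of T cells (78.0 to 80.6 against 151 to 158 CPM) and of NK cells and ILC1s (5.90 to 6.95 against 15.02 to 16.1 CPM), cell types known to make IL-12 receptors, were lower in the same libraries. Single T-cell markers were 1.125-fold (Trbc1) to 257-fold (Cd8a) higher in IL-10-negative libraries. The 4 lower NK and ILC1 markers tested were 21.8-fold (Nkg7) to 64.8-fold (Klrb1c) higher there, and Prf1 was lower (4.79 against 6.24 CPM). Cd8a and Klrb1c had at most 4 counts in an IL-10-producing library. The part of these cell types was not tested.

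**Figure D2:**
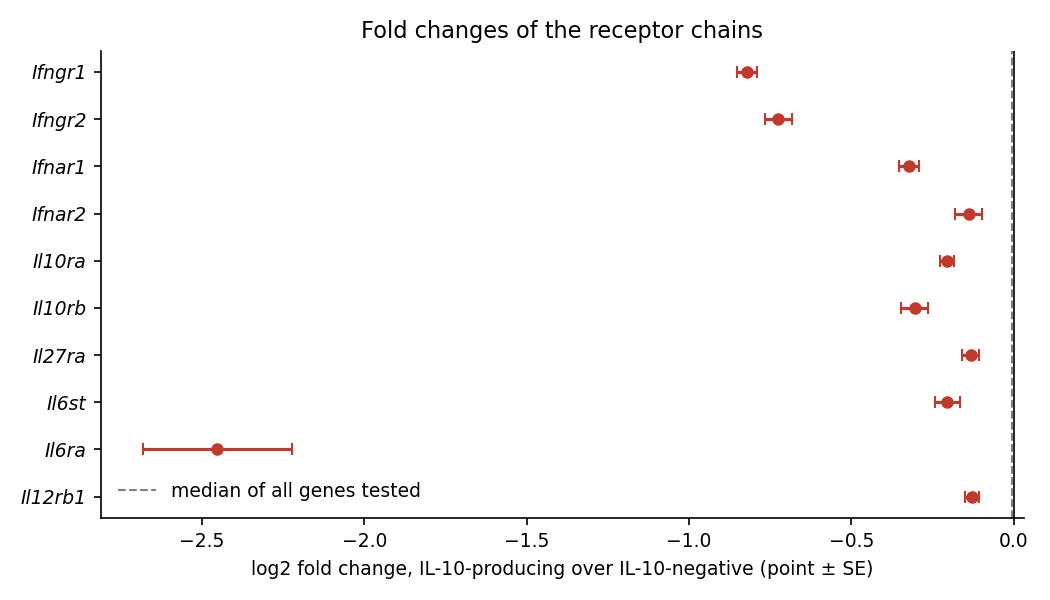
Log2 fold change of each receptor gene, IL-10-producing over IL-10-negative (x axis; points with SE from the edgeR fit). All 10 points lie left of 0 and of the dashed median of all genes tested (-0.0038), with Il6ra, Ifngr1 and Ifngr2 farthest from it.

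Levels of different genes were compared per kb of annotated exon sequence. In IL-10-negative libraries the order was Il12rb1 (74.1 ± 0.800 CPM per kb), Il10ra (66.2 ± 1.15), Il27ra (37.1 ± 0.726), Ifngr1 (33.8 ± 0.127), Ifnar2 (13.6 ± 0.505), Ifnar1 (13.5 ± 0.393), Ifngr2 (13.1 ± 0.366), Il10rb (11.5 ± 0.589), Il6st (3.996 ± 0.116) and Il6ra (0.320 ± 0.0465). Ifnar2, Ifnar1 and Ifngr2 overlapped their neighbours in that order, and the other neighbours did not. In IL-10-producing libraries no neighbours overlapped, Il10rb (9.31 ± 0.0758 CPM per kb) stood above Ifngr2 (7.92 ± 0.360), and Ifngr1 had moved from close below Il27ra to 19.1 ± 0.609 against 33.8 ± 0.525 CPM per kb. The exon lengths join all annotated isoforms, so a gene expressed as a short isoform is placed too low.

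Of the 10 genes, 4 lie in a single cluster on chromosome 16, in the order Ifnar2, Il10rb, Ifnar1 and Ifngr2, all on the plus strand within 192.8 kb. Ifnar2 ends 574 bases before Il10rb starts, and the next gaps are 59.4 and 39.6 kb. These neighbours fell by 0.14, 0.30, 0.32 and 0.72 on the log2 scale, so the cluster holds the second-largest fall among members above 5 CPM and one of the smallest. Of the 3 further rows of the count table inside the cluster, all of them gene models under 1 CPM, 2 were tested and neither passed. GENCODE M21 also annotates a read-through gene model, Gm21970, across Ifnar2 and Il10rb, which was not analysed here; reads from it could have been counted for either gene. Elsewhere, Il27ra overlaps Palm3 on the other strand by 2 bases, Il6ra overlaps an antisense model (Gm42809) by 281 bases and Il10ra holds a pseudogene and a microRNA. Strand use in counting is not stated in the sources used here, so reads of such overlaps cannot be assigned.

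**Figure D3:**
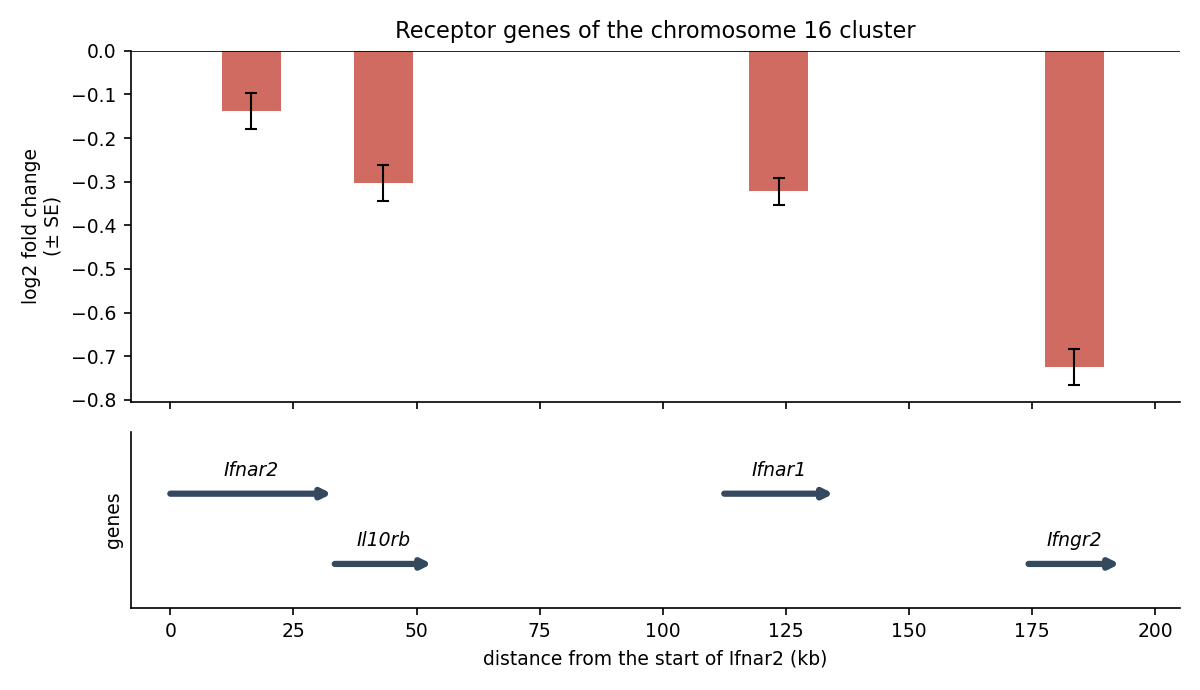
Upper panel: log2 fold change of the 4 receptor genes of the chromosome 16 cluster (bars with SE). Lower panel: their extents and direction by distance from the start of Ifnar2 in kb. The fall is largest for Ifngr2 at the far end (-0.72) and smallest for Ifnar2 (-0.14).

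The balance between the chains of a receptor was taken as the log2 ratio of their counts within a library, which does not depend on scaling between libraries. For Ifngr1 over Ifngr2 it was 0.92, 1.00 and 0.99 in IL-10-negative and 0.89, 0.94 and 0.78 in IL-10-producing libraries, and the groups overlapped (difference -0.10, two-sided exact permutation p = 0.2). For Ifnar1 over Ifnar2 it was 0.72, 0.87 and 0.89 against 0.61, 0.69 and 0.63, without overlap (difference -0.18). Il10ra over Il10rb went the other way, from 2.46, 2.40 and 2.36 to 2.51, 2.501 and 2.498 (difference 0.10), as did Il27ra over Il6st (difference 0.07). Il6ra over Il6st dropped from -4.11, -4.14 and -3.78 to -6.46, -6.66 and -5.63 (difference -2.24). The exact permutation p was 0.1 for these and for Il12rb1 over Il12rb2, the smallest that 3 against 3 libraries allow, and 0.12 after adjustment over the 6 pairs, so no pair could pass 0.05.

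**Figure D4:**
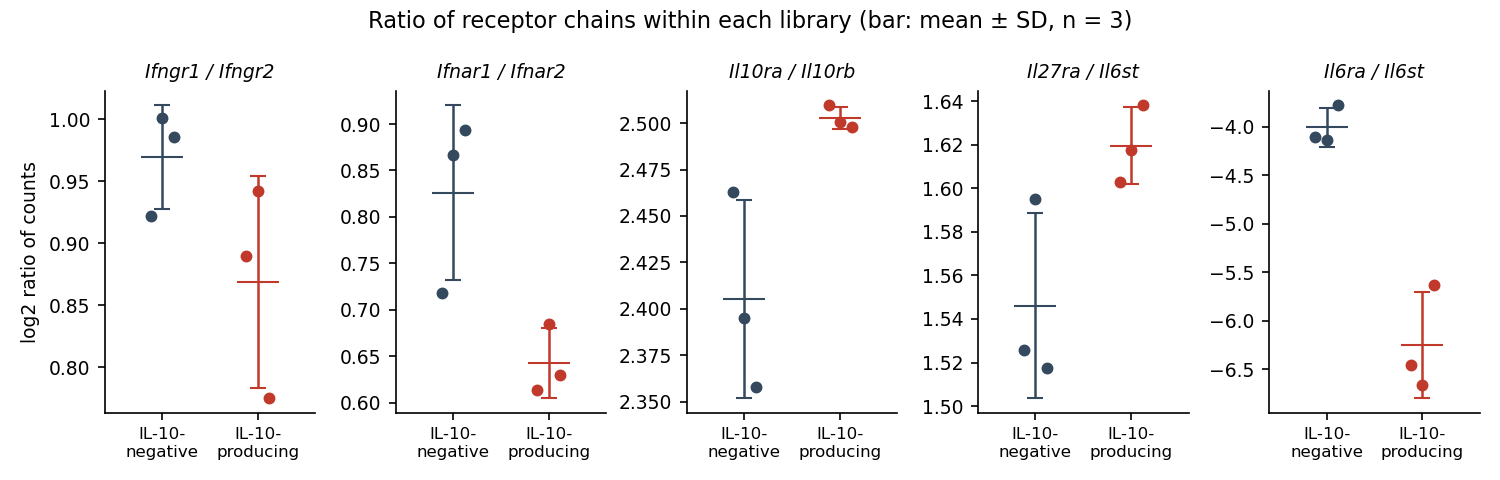
Log2 ratio of counts of paired receptor chains (y axis; each panel has its own range, not starting at 0) in the 3 IL-10-negative and 3 IL-10-producing libraries; bars are mean and SD. Only the Ifngr1 over Ifngr2 panel shows overlapping groups, and Il12rb1 over Il12rb2 is left out because Il12rb2 had 0 to 2 counts in IL-10-producing libraries.

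Downstream of the receptors, 7 of 8 genes for kinases and transcription factors were lower and 0 higher (median log2 fold change -0.26, beside -0.0038 over all genes tested). Stat4, the factor used by IL-12, fell from 69.0 ± 1.70 to 37.9 ± 1.85 CPM (log2 fold change -0.86, SD over n = 3). Jak2 fell from 181 ± 3.32 to 129 ± 0.760 CPM, and Irf9 from 47.3 ± 1.42 to 35.8 ± 0.399 CPM. Stat3 did not pass, at 417 ± 6.04 against 430 ± 3.72 CPM (adjusted p = 0.0899), but did with library size only (adjusted p = 0.00286), which made 8 of 8 lower. The call of Tyk2 was lost without IL-10-producing replicate 1 (adjusted p = 0.0566) or IL-10-negative replicate 1 (0.0628), which left 6 lower. T-cell and NK markers, listed above, moved in the same direction in these libraries, and their part was not tested.

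Ligand genes of these receptors went both ways. Of 20 ligands 12 had a row and 7 were tested, of which 2 were higher (Il10, the sorted gene, and Lif) and 4 lower. Lif, a ligand of the gp130 family, rose from 438 ± 3.49 to 547 ± 16.9 CPM, and Il6 fell from 30.6 ± 0.521 to 10.9 ± 0.426 CPM. Ifng, mentioned after its values were seen, had 45, 58 and 78 counts in IL-10-negative and 0 counts in each IL-10-producing library. That is at least 61.2-fold lower against a floor of 3 counts over the group. In the same IL-10-producing libraries T-cell markers (13 of 13 genes) and NK and ILC1 markers (4 of 5 tested, 1 higher) were lower. Their part in the Ifng value was not tested. The remaining ligand genes that fell, likewise picked afterwards, were Clcf1 (12.4 ± 0.894 to 6.61 ± 0.675 CPM) and Ebi3, a subunit of IL-27, whose groups overlapped (14.3 ± 2.06 to 12.1 ± 0.747 CPM). The Ebi3 call was lost without IL-10-producing replicate 1 (adjusted p = 0.0559) or 3 (0.0929) and without IL-10-negative replicate 1 (0.228).

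Genes that these receptors are known to switch on or that restrain them were divided in direction. Of 23 tested interferon targets 13 were lower and 4 higher (median -0.47). Gbp2 fell by 1.77, Gbp7 by 0.92 and Igtp by 0.47 on the log2 scale. Irgm1, Gbp4, Irf8 and Mx1, named after their values were seen, rose. The summed level of all 24 targets was 1294 to 1312 CPM in IL-10-producing and 1328 to 1349 CPM in IL-10-negative libraries. The lower targets Iigp1, Oas2 and Cxcl10, likewise named afterwards, had 0 counts in at least 1 IL-10-producing library. The part of the T-cell and NK marker differences was not tested. The Irf8 call was lost without IL-10-producing replicate 2 (adjusted p = 0.137) and IL-10-negative replicates 2 (0.0835) and 3 (0.0628), and that of Gbp4 with library size only (0.058). Of 9 tested STAT3 targets 2 were lower (Bcl3 by 0.09 and Bcl6 by 1.11 on the log2 scale) and 1 higher (Junb, 514 ± 13.2 against 474 ± 5.78 CPM). Among 8 feedback inhibitors Socs3, which blocks gp130 signalling, rose from 482 ± 6.13 to 517 ± 10.6 CPM and the phosphatase gene Ptpn2 from 74.3 ± 1.56 to 81.9 ± 3.49 CPM, and Ptpn1 fell by 0.07 on the log2 scale (adjusted p = 0.0273). The Ptpn1 call was lost with DESeq2 (adjusted p = 0.0578) and without any of IL-10-producing replicates 1 and 3 and IL-10-negative replicates 1 and 3 (adjusted p between 0.0509 and 0.186). The Bcl3 call was lost without IL-10-producing replicate 3 (adjusted p = 0.0501) and IL-10-negative replicate 3 (0.0532). With library size only, 6 STAT3 targets and 3 feedback inhibitors were lower. Neither of the proteases that shed the IL-6 receptor passed, with Adam10 at 181 ± 6.34 against 174 ± 4.27 CPM and Adam17 at 104 ± 3.86 against 105 ± 1.44 CPM.

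Other receptors did not all move down. Of 21 tested genes for other cytokine receptors, 10 were lower and 5 higher (median -0.13), against 10 lower and 0 higher here. Il1r2, the IL-1 decoy receptor, rose by 0.88 and Il2ra by 0.47 on the log2 scale, and Il18r1 fell by 1.29. Of the other chains from the same families as the 10 genes, 6 of 14 were tested, 0 rose and 2 fell: Il12rb2 and Lifr, the LIF receptor chain, with 45 counts over all IL-10-negative and 8 over all IL-10-producing libraries. The difference between these lists and the 10 genes was not tested. The 3 genes whose log2 level over the 6 libraries was most like that of Ifngr1, the member with the largest change above 5 CPM, were Ltb, Gvin1 and Csf2 (Pearson r of 0.9995, 0.9994 and 0.9994). With only 2 groups of libraries such values are common, and 1001 of 9351 genes compared had an r above 0.95.

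**Figure D5:**
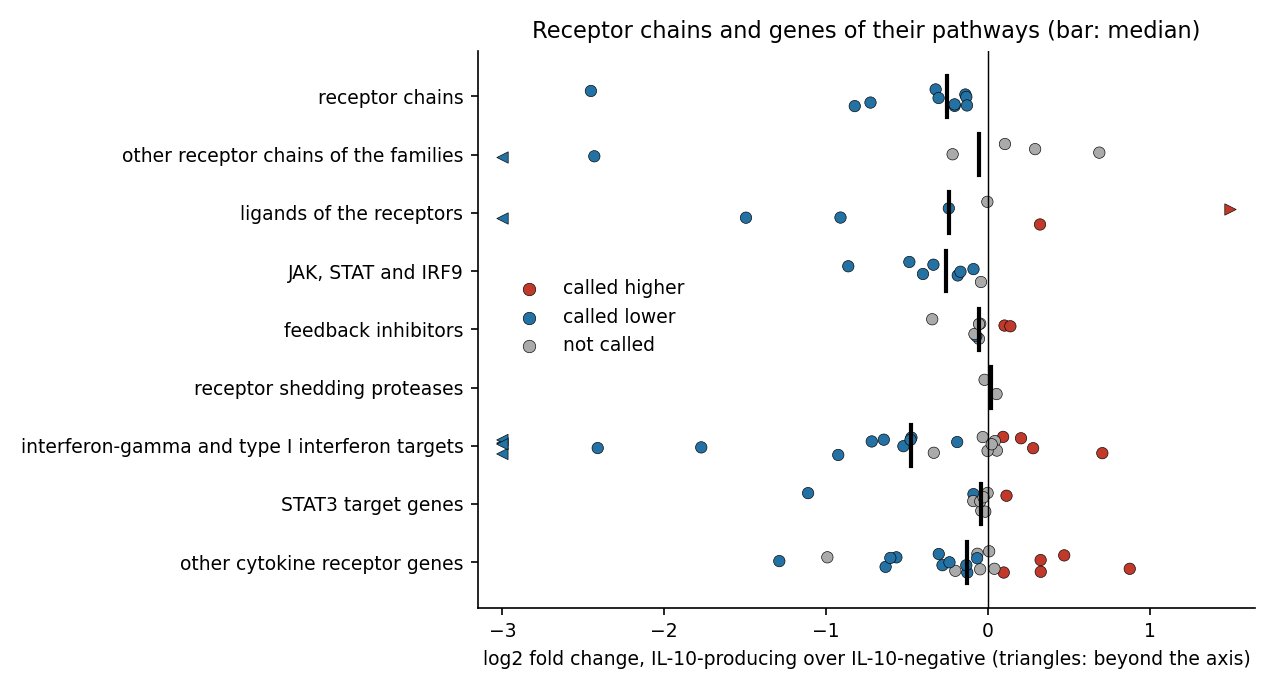
Log2 fold changes of the 10 receptor genes and of the tested genes of 8 related lists, IL-10-producing over IL-10-negative; red points were called higher, blue lower, grey neither, bars are medians, and triangles mark values beyond the axis (Il10 at 5.97 among them). The receptor row holds blue points only, and the median of the row of kinases and STAT factors (-0.26) is close to that of the receptors (-0.25).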

How the data were processed

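The submitters' processing notes list STAR 2.5.3a, Partek, bcl2fastq 2.17.1.14 and build mm10; the annotation release is not given in the sources used here. The authors deposited unscaled estimated counts for each gene. Their second deposited table holds normalized signal values (13824 genes), each equal (within 1%) to the estimated count plus 1 times 1 factor per library. Estimated counts were rounded and tested with edgeR 4.0.16 (R 4.3.3; quasi-likelihood F test, TMM, group only; filterByExpr defaults of minimum count 10 and total 15) over 16654 genes, Benjamini-Hochberg threshold 0.05. Levels are TMM-scaled CPM. Positions equal those of GENCODE M21 for all 19917 shared identifiers once 1 was subtracted from the stop; lengths are exon unions from it. Squared differences between replicate libraries (median over genes) were 2.4 to 2.93 times those that Poisson sampling gives, so none was a copy. The fit was tested on simulated data of 3 against 3 libraries. It found 71 of 100 genes changed by 0.5 on the log2 scale and 82 of 100 changed by 1.0.

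The members and lists were chosen with earlier results of these data known. Named genes were the 10 members, up to 3 changed genes of smallest p at 1 CPM or more from each of 8 pathway lists, and the 3 genes most like the member with the largest change among those at 5 CPM or more; all other genes were named after their values were seen. Markers came from 9 lists. Alternatives were DESeq2 1.42.0, its size factors in edgeR, scaling by library size only, testing without the filter, limma-voom, limma 3.58.1 on log2 (normalized value plus 1), a replicate block, and omission of each library in turn; chain ratios used counts plus 0.5 or 5.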

Additional observations from a re-analysis of the deposited data

How the results depend on the processing

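All 10 receptor genes kept a negative log2 fold change in all 13 alternatives each, and 9 of them kept their call in all 13; Ifnar2 lost it in 2. Leaving out each library in turn gave 9 to 10 members lower and 0 higher. Same-numbered libraries of the groups did not deviate together (correlations of deviations -0.0479, -0.0234 and -0.0296). These correlations weigh all tested genes alike, noisy low ones included, so they cannot tell whether such libraries shared a mouse, pool or culture. With the replicate block 10 members were lower and 0 higher. Over all genes 2778 were higher and 3039 lower with the block, against 2840 and 3103 without it. With 5 counts added, the Il12rb1 over Il12rb2 difference was 3.11 in place of 5.09, because 0 to 2 counts of Il12rb2 in IL-10-producing libraries set it. With library size only, 3 feedback inhibitors and 6 STAT3 targets were lower, against 1 and 2. Lower feedback inhibitors numbered 2 with the replicate block or limma-voom and 0 with DESeq2 and without IL-10-negative replicate 1 or 3. Lower STAT3 targets numbered 1 without IL-10-negative replicate 3. Among the other chains of the families 1 was lower in the authors' normalized values, which held 3 of them, and Adam10 was called higher without IL-10-producing replicate 2. Depth limits Il6ra, Il12rb2, Il23r, Lifr and Ifng, each with at most 35 counts in an IL-10-producing library.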
